A study of Homo sapiens with 18 samples.

Results

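The NF-kB transcription factors, their inhibitors and the CC chemokines that they are known to induce were described in 6 human ovarian cancer cell lines. The 10 genes, called the members below, were chosen by symbol (the subunits NFKB1, NFKB2, RELA and RELB, the inhibitors NFKBIA and TNFAIP3, the TNF-induced gene TNFAIP2, and the chemokines CCL2, CCL5 and CCL20), and 9 of them were among the 12853 genes with RNA-seq values. CCL2 was not analysed here. The lines form 3 pairs of a platinum-sensitive and a platinum-resistant line, each sequenced as 3 replicate libraries (18 in all), and each pair asks which expression differences accompany resistance. CP70 is a resistant derivative of A2780 that was selected in vitro. The other lines model high-grade serous ovarian cancer (HGSOC), with 1 patient behind each pair. PEA1 represents ascites cells that had not met platinum, and PEA2 the relapsed, resistant disease. PEO1 and PEO4 had both been exposed to platinum in the patient, and only PEO4 dates from the stage at which treatment no longer worked. All 6 lines were grown in RPMI medium with serum and glutamine, and the labels name no drug or cytokine added to the RNA-seq cultures. Every sensitive or resistant state is therefore represented by 1 line per pair, and the libraries measure that line.

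NF-kB is a family of dimeric transcription factors that inhibitors of the IkB family hold in the cytoplasm. Receptors for TNF, interleukin 1 and microbial products activate the IKK kinases, which mark the inhibitors for destruction so that dimers such as RELA with the product of NFKB1 enter the nucleus, while a separate non-canonical route through MAP3K14 releases RELB with the product of NFKB2. Several NF-kB genes, among them NFKBIA, TNFAIP3, NFKB2 and RELB, are themselves NF-kB targets, and so are CCL2, CCL5 and CCL20, chemokines that attract monocytes, T cells and dendritic cells.

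Promoter sequences were read for 7 of the members to show where the DNA motif of these factors lies at the members' own start sites. RefSeq (GRCh38.p14) gave 11 promoters of 300 bases, from 250 bases before to 50 bases after a start site, and each was located in GRCh37 by an exact match of its whole sequence. None was given for RELB, CCL2 and CCL5. The kappaB consensus, searched by name on both strands, was in 6 of these promoters, belonging to 5 members (NFKB1, NFKB2, NFKBIA, TNFAIP3 and CCL20), and in 5.91% of 35116 RefSeq promoters of the same length. No match was found in the promoters of RELA and TNFAIP2. The stretches with a match are printed 5′ to 3′ along each gene with the matched bases in capitals.
NFKB1 start site 1, chr4:103422447-103422496 (GRCh37, plus strand): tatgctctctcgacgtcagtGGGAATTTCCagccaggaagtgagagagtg
NFKB2 start site 2, chr10:104154208-104154286 (GRCh37, plus strand): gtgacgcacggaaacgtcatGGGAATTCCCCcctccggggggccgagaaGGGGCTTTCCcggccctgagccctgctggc
NFKB2 start site 3, chr10:104155266-104155470 (GRCh37, plus strand): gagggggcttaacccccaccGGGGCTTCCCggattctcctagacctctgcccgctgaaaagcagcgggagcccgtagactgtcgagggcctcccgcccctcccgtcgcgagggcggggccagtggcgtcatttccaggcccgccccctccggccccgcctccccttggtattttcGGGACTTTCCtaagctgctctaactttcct
NFKBIA, chr14:35874007-35874056 (GRCh37, minus strand): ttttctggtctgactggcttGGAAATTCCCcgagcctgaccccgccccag
TNFAIP3, chr6:138188309-138188370 (GRCh37, plus strand): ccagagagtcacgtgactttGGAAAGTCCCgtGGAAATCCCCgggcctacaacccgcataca
CCL20, chr2:228678459-228678508 (GRCh37, plus strand): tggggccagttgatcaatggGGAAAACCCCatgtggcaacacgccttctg

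The TNFAIP3 promoter held a pair of matches, both on the minus strand, whose first bases lay at positions -67 and -55 from the start site. The match in NFKBIA began at -81, that in CCL20 at -79 and that in NFKB1 at -49. The NFKB2 promoter at start site 2 gave 4 matches, of which 3 overlap at positions -107 and -106 and 1 stands apart at -78. The bases at -107 read alike on both strands and so match on each, and the match at -106 is on the minus strand only. These matches are letters in a window and were not compared with binding data.

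Values are the deposited log2 CPM (counts scaled to library size, on a log2 scale with 0.5 reads added). Reads per library, recovered from them, ranged from 1344098 to 7067336 over the listed genes, so that 3 reads, taken here as the floor, correspond to 0.452 to 2.18 CPM. Levels in CPM are given below from those reads and the deposited library scaling, without the added 0.5 reads. A gene is called changed at a false discovery rate (FDR) below 0.05 in limma, adjusted over 12853 genes, and differentially expressed where |log2FC| is also above 2. The log2FC is the resistant line minus the sensitive line. Of 7 markers of epithelial ovarian cells, 6 (PAX8, WT1, MUC16, KRT7, KRT8 and KRT18) had at most 3 reads in every A2780 library, as did 3 in CP70 (PAX8, WT1 and KRT7) and 1 in PEA1 (KRT7), whereas all 7 were above this floor in PEA2, PEO1 and PEO4. Of 8 leukocyte markers only PTPRC was in the table, with 46 to 70 reads per library in PEA2 and at most 2 in the other lines.

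Of the 4 NF-kB subunits, none was called changed in all 3 pairs, and only NFKB2 had a log2FC of the same sign in each. NFKB2, which encodes the precursor of the non-canonical subunit p52 (chromosome 10, 104153867 to 104162281 on the plus strand of GRCh37, as for all positions here), was raised in CP70. Its levels were 25.5, 16.8 and 18.3 CPM in the A2780 libraries and 44.4, 48.8 and 43.6 CPM in those of CP70. The lines do not overlap, and NFKB2 rose 2.28-fold in CP70 (log2FC 1.19, SE 0.13, FDR 1.99e-07). In the HGSOC lines NFKB2 stood higher, at 98.1, 96.2 and 105 CPM in PEA1, 108, 115 and 118 CPM in PEA2, 64.3, 69.4 and 76.0 CPM in PEO1 and 68.2, 74.4 and 75.1 CPM in PEO4. Neither HGSOC pair passed the test (log2FC 0.19, FDR 0.212 for PEA2 against PEA1, and 0.06, FDR 0.760 for PEO4 against PEO1), although the PEA lines do not overlap. In these bulk libraries, a smaller share of expressing cells and less RNA per cell cannot be told apart, here and for every gene below.

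RELB, the partner of p52 (chromosome 19, 45504719 to 45541450, plus strand), moved in opposite directions in the A2780 and PEA pairs. Its levels were 5.88, 6.19 and 8.04 CPM in A2780 and 18.2, 14.7 and 10.8 CPM in CP70, a 2.11-fold rise (log2FC 1.08, SE 0.29, FDR 0.00487). In PEA1 they were 52.3, 39.2 and 35.1 CPM, and in PEA2 12.3, 26.2 and 21.0 CPM, so that PEA2 was 2.19-fold lower (log2FC -1.13, SE 0.29, FDR 0.00196). In both pairs every library of the higher line lay above every library of the lower line. The PEO lines overlapped, at 18.6, 22.2 and 26.7 CPM in PEO1 and 25.3, 13.7 and 22.3 CPM in PEO4 (log2FC -0.17, FDR 0.679). RELB was the subunit with the widest spread between replicates, and its libraries held 18 to 177 reads.

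RELA, the subunit p65 (chromosome 11, 65421070 to 65430561, minus strand), had small changes of opposite sign in the A2780 and PEO pairs. It rose from 46.7, 53.1 and 44.7 CPM in A2780 to 70.9, 63.3 and 68.1 CPM in CP70 (1.40-fold, log2FC 0.48, SE 0.10, FDR 0.000871). It fell from 114, 122 and 149 CPM in PEO1 to 90.3, 101 and 96.1 CPM in PEO4 (1.33-fold lower, log2FC -0.41, SE 0.10, FDR 0.00345). The lines of both pairs do not overlap. The PEA lines did, at 86.5 ± 3.12 CPM in PEA1 and 85.0 ± 3.38 CPM in PEA2 (mean ± SD, n = 3; log2FC -0.03, 95% interval -0.25 to 0.19, FDR 0.837).

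NFKB1, the precursor of p50 (chromosome 4, 103422487 to 103538459, plus strand), varied least of the members across the lines. Its 18 libraries lay between 64.8 and 116 CPM. It was higher in PEO4, at 85.5, 90.4 and 90.9 CPM, than in PEO1, at 69.9, 69.8 and 64.8 CPM (1.31-fold, log2FC 0.38, SE 0.11, FDR 0.00773), without overlap. The A2780 and PEA pairs overlapped, with log2FC of -0.01 (95% interval -0.24 to 0.22) and 0.11 (95% interval -0.12 to 0.34).

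**Figure D1:**
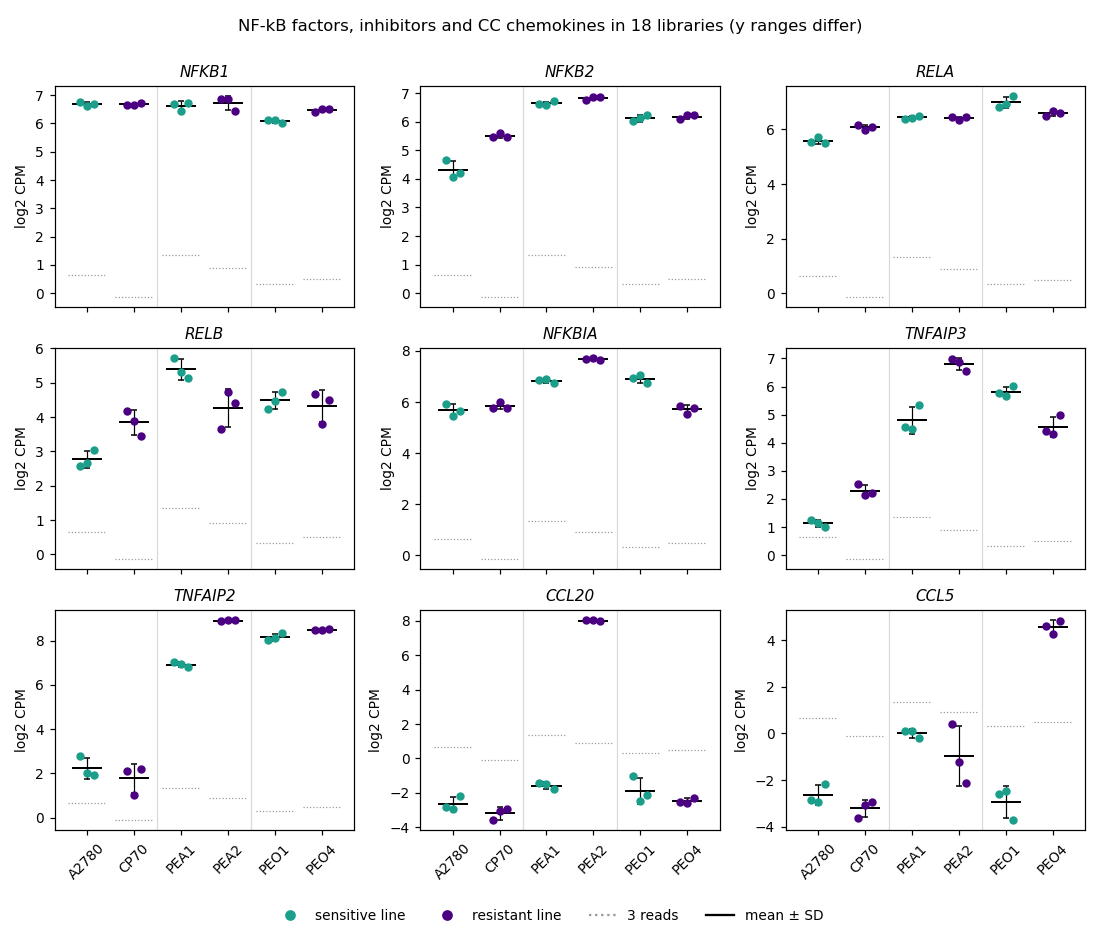
Deposited log2 CPM (y axis, a log2 scale whose range differs between panels) of the 9 members in the 6 lines (x axis), with 1 point per library, a bar for the mean and its SD over 3 libraries, and a dotted line at the level of 3 reads in the shallowest library of the line. CCL20 stands above that level only in PEA2 and CCL5 only in PEO4, while the 4 subunits and NFKBIA are above it in all 18 libraries.

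Both inhibitors moved in opposite directions in the HGSOC pairs. NFKBIA encodes IkB alpha, which retains NF-kB dimers in the cytoplasm (chromosome 14, 35870285 to 35873955, minus strand). Its levels were 116, 118 and 106 CPM in PEA1 and 207, 208 and 198 CPM in PEA2, a 1.80-fold rise (log2FC 0.85, SE 0.12, FDR 6.10e-06). They were 122, 134 and 106 CPM in PEO1 and 57.8, 46.4 and 54.4 CPM in PEO4, which was 2.28-fold lower (log2FC -1.19, SE 0.12, FDR 1.87e-07). PEA1 and PEO1 lay near each other, and the resistant lines lay on either side of both without overlap. The A2780 pair overlapped, at 51.9 ± 8.52 CPM in A2780 and 57.6 ± 5.53 CPM in CP70 (log2FC 0.16, 95% interval -0.10 to 0.42, FDR 0.328).

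TNFAIP3 encodes A20, a ubiquitin-editing enzyme that ends NF-kB signalling (chromosome 6, 138188351 to 138204451, plus strand). It was the member with a change in every pair. Its levels were 23.2, 22.1 and 40.3 CPM in PEA1 and 126, 116 and 94.7 CPM in PEA2, a 4.01-fold rise that just passed the bound for differential expression (log2FC 2.00, SE 0.23, FDR 3.54e-07). With 1 library left out the log2FC ranged from 1.85 to 2.28, and it lay under that bound in 4 of 6 such fits (without PEA1 replicate 1, 1.89, PEA1 replicate 2, 1.85, PEA2 replicate 1, 1.92, or PEA2 replicate 2, 1.98), as it did after quantile normalization (1.90), with voom weights (1.97) and with 2 reads added (1.96). In the PEO pair TNFAIP3 went from 53.9, 50.8 and 64.2 CPM in PEO1 to 21.1, 19.7 and 31.2 CPM in PEO4, 2.37-fold lower (log2FC -1.25, SE 0.23, FDR 0.000227).

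The A2780 pair held far less TNFAIP3 RNA than the HGSOC lines. The A2780 libraries had 8, 8 and 4 reads (2.24, 2.06 and 1.79 CPM) and those of CP70 35, 18 and 17 reads (5.73, 4.27 and 4.47 CPM), so that CP70 was 2.24-fold higher (log2FC 1.16, SE 0.23, FDR 0.000445). After quantile normalization this difference was 0.44 on the log2 scale and was no longer called (FDR 0.147). An antisense RNA, WAKMAR2, overlaps TNFAIP3 on the other strand, and RELA, TNFAIP2 and CCL5 also overlap antisense RNAs. The libraries were strand-specific, but the setting used to count reads by strand is not given in the sources used here.

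TNFAIP2, a gene induced by TNF that is known for its part in membrane protrusions (chromosome 14, 103587813 to 103603776, plus strand), divided the A2780 pair from the HGSOC lines. It had 8 to 26 reads in the libraries of A2780 and CP70 (1.90 to 6.71 CPM) and 170 to 2132 reads in those of the HGSOC lines. In the PEA pair it went from 129, 121 and 109.9 CPM in PEA1 to 467, 479 and 485 CPM in PEA2, a 3.98-fold rise (log2FC 1.99, SE 0.23, FDR 4.05e-07). This log2FC lies just below the bound of 2, and that of TNFAIP3 just above it. It passed 2 in 3 of 6 fits with 1 library left out (2.04 without PEA1 replicate 1, 2.00 without PEA1 replicate 2 and 2.01 without PEA2 replicate 1). The PEO lines do not overlap, at 257, 277 and 321 CPM in PEO1 and 357, 353 and 366 CPM in PEO4, but the difference was not called (log2FC 0.34, 95% interval -0.15 to 0.83, FDR 0.270). With each pair fitted alone it was called at the same log2FC (FDR 0.00514), as it was with voom weights (FDR 0.00645). The A2780 pair gave a log2FC of -0.46 (FDR 0.133), with overlapping libraries, and this was called after quantile normalization (-0.58, FDR 0.0108) and without CP70 replicate 3 (-0.67, FDR 0.0411).

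Both CC chemokines with values among the members were above 3 reads in 1 line each. CCL20 attracts dendritic cells and lymphocytes that carry CCR6 (chromosome 2, 228670455 to 228682280, plus strand). PEA2 had 495, 903 and 551 reads (264, 259.9 and 252 CPM) and PEA1 had 0 in each library, where 3 reads would be 1.73 to 2.18 CPM. CCL20 was therefore at least 128-fold higher in PEA2 (FDR 2.87e-13), with the PEA1 mean set to 3 reads per library. A2780, CP70 and PEO4 had 0 reads in every library and PEO1 had 1, 0 and 1. Of the markers of other cells, PTPRC (leukocytes) and CDH5 (endothelium) moved with CCL20, at 20.1 to 25.1 CPM and 25.3 to 36.1 CPM in PEA2 and 0 reads in PEA1, and 7 of 8 leukocyte markers and 2 of 3 endothelial markers were not in the table. The summed level of 4 fibroblast markers was 366 to 447 CPM in PEA1 and 3.17 to 4.12 CPM in PEA2. All of this was COL1A1 (513 to 649 reads against 7 to 11), since COL3A1, DCN and LUM had 0 reads in both lines. The sum of 3 mesothelial markers was 3.45 to 10.7 CPM in PEA1 and 64.2 to 86.0 CPM in PEA2, with UPK3B at most 3 reads in both. The summed epithelial markers were at 427 to 586 CPM in PEA1 and 2841 to 3165 CPM in PEA2, while PAX8 among them was level (mean log2 CPM 8.35 and 8.33). The part of these in the PEA differences was not tested.

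CCL5, which attracts T cells and monocytes (chromosome 17, 34198495 to 34207797, minus strand, in an annotation that lists it under another identifier than the table's ENSG00000161570), was detected in PEO4. Its libraries had 70, 57 and 70 reads (24.2, 19.0 and 28.4 CPM) and those of PEO1 had 0, so that CCL5 was at least 28.6-fold higher in PEO4 (FDR 1.36e-09), with the PEO1 mean set to 3 reads per library. PTPRC had 0 reads in every PEO1 and PEO4 library, and the summed epithelial markers were at 6257 to 7268 CPM in PEO1 and 4401 to 5987 CPM in PEO4. These epithelial markers did not move together. From PEO1 to PEO4, KRT7 was lower (mean log2 CPM 10.93 and 8.49), and MUC16, KRT8 and KRT18 were lower by less. PAX8 (7.30 and 7.95), WT1 (6.49 and 7.93) and EPCAM (8.45 and 8.92) were higher in PEO4. The summed level of 4 fibroblast markers moved with CCL5, from 2.94 to 7.08 CPM in PEO1 to 67.7 to 76.5 CPM in PEO4, with COL3A1 at 0 reads in PEO1 and 156 to 193 reads in PEO4 and DCN and LUM at most 1 read in both lines. COL1A1 changed little (mean log2 CPM 2.18 in PEO1 and 2.62 in PEO4). The summed level of 3 mesothelial markers was 273 to 294 CPM in PEO1 and 378 to 388 CPM in PEO4. Among these, MSLN was at a mean log2 CPM of 7.81 and 8.31 and UPK3B at 5.88 and 6.03. CALB2 went the other way, with 0 to 7 reads in PEO1 and 0 in PEO4. The endothelial marker CDH5 had at most 1 read in both lines. The part of these in the PEO differences was not tested. A2780 and CP70 had 0 CCL5 reads, PEA1 had 1 in each library and PEA2 had 2, 1 and 0, so no difference could be detected at this depth. The other listed CC chemokine with values, CCL28, had 796 to 1420 reads in PEA2 against 19 to 32 in PEA1 (log2FC 4.71, SE 0.33, FDR 2.82e-10), and 0 reads in A2780 and CP70.

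The order of the 6 lines differed between the members. PEA2 had the highest mean of NFKB1, NFKB2, NFKBIA, TNFAIP3, TNFAIP2 and CCL20, PEA1 of RELB, PEO1 of RELA and PEO4 of CCL5. A2780 had the lowest mean of NFKB2, RELA, RELB, NFKBIA and TNFAIP3. Here the members are compared only between neighbours in that order. No step between neighbours among the 5 highest lines for NFKB1 was called (log2FC up to 0.14). Nor was the step between PEO1 and PEA1 for NFKBIA (0.08, FDR 0.566), or that between PEA1 and PEO4 for TNFAIP3 (0.23, FDR 0.388). For TNFAIP2, PEA2 over PEO4 (0.41, FDR 0.128) and PEO4 over PEO1 (0.34, FDR 0.270) were not called. PEA2 over PEA1 for NFKB2 was not called either (0.19, FDR 0.212). CP70, PEO4 and A2780, the 3 lowest lines for NFKBIA, did not differ between neighbours either (FDR 0.373 and 0.815). Steps that were called include PEO4 over CP70 for TNFAIP3 (2.27 on the log2 scale, FDR 3.43e-08, where 70.1% of all genes were called) and PEA1 over A2780 for TNFAIP2 (4.67, FDR 5.36e-13, where 71.9% were). Lines of different pairs differed in 66.9% to 74.3% of all genes by the same call.

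On a scale per length (mean log2 of CPM per kilobase of the canonical transcript), NFKBIA was the most abundant member in A2780, CP70, PEA1 and PEO1, at levels of 5.05, 5.21, 6.19 and 6.27. CCL20 was the most abundant in PEA2, at 8.28 against 7.04 for NFKBIA, and TNFAIP2 in PEO4, at 6.26. TNFAIP3 was below the 4 subunits in A2780, CP70, PEO4 and PEA1 and below all but RELB in PEO1 and PEA2. Its level per length was -1.09 in A2780 and 4.58 in PEA2. NFKB1 lay between 4.07 and 4.71 in the 6 lines.

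**Figure D2:**
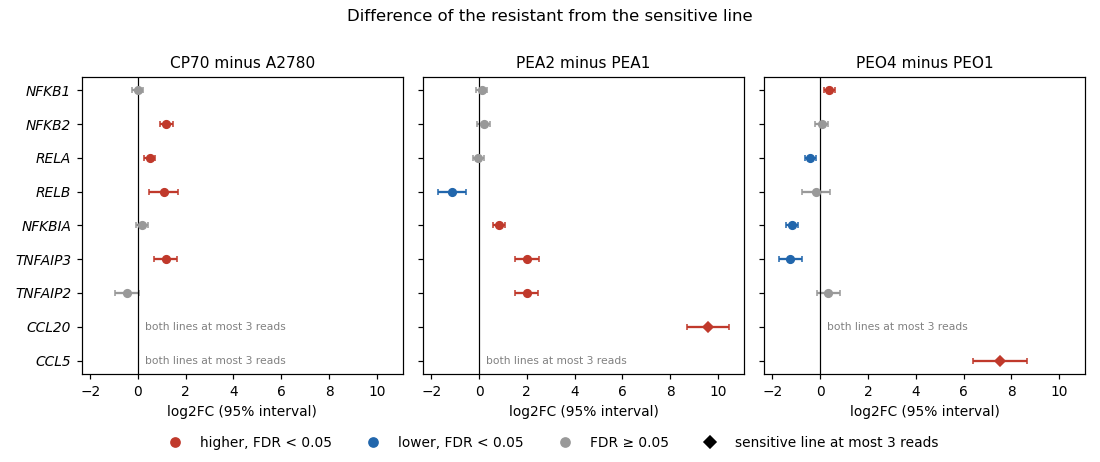
Estimated log2FC of the resistant against the sensitive line (x axis, log2 scale) with its 95% interval for the 9 members (y axis) in each pair, coloured by direction and FDR. Diamonds mark CCL20 in the PEA pair and CCL5 in the PEO pair, whose fitted values depend on the 0.5 reads added because the sensitive line had 0 reads, and NFKBIA and TNFAIP3 lie right of 0 in the PEA pair and left of 0 in the PEO pair.

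By pair, 4 of the 9 members were changed in CP70, against 39.9% of all genes, and all 4 (NFKB2, RELA, RELB and TNFAIP3) were higher, against 22.2% of all genes. None of them was differentially expressed, against 9.06% of all genes, since the largest log2FC was 1.19. The libraries of the A2780 pair did not overlap for 4 members, against 54.6% of all genes. In the PEA pair 5 members were changed (61.9% of all genes), with NFKBIA, TNFAIP3, TNFAIP2 and CCL20 higher (32.5% of all genes) and RELB lower (29.4%). TNFAIP3 and CCL20 were differentially expressed (14.1% of all genes), and the libraries of 6 members did not overlap (62.6%). In the PEO pair 5 members were changed (41.5% of all genes), with NFKB1 and CCL5 higher (19.6%) and RELA, NFKBIA and TNFAIP3 lower (21.9%). CCL5 was differentially expressed (6.22%), and the libraries of 6 members did not overlap (57.5%). The members' shares were 44.4%, 55.6% and 55.6%, within 2 calls of the background in each pair. CCL20 and CCL5 are in these counts, although they were above 3 reads only in PEA2 and PEO4 and may be listed only through those lines. The median log2FC of the 9 members was 0.16 for A2780 and CP70, 0.19 for the PEA lines and -0.17 for the PEO lines, against -0.02, 0.01 and -0.02 over all genes.

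Whether the difference between the resistant and the sensitive line was itself different between pairs was tested in the same fit (limma F test over the 3 pairs). It was for 8 of the 9 members, against 75.3% of all genes. The 8 include CCL20 and CCL5, which were above 3 reads only in PEA2 and PEO4. They may be among the listed genes only through those lines, and their test rests on them. NFKBIA (FDR 1.29e-08) and TNFAIP3 (FDR 1.12e-07) had the smallest FDR among the members that were detected in all 6 lines, and NFKB1 was the exception (FDR 0.0669). A model over all pairs, with the pair and the sensitivity as terms, called 1 member, against 24.1% of all genes. This was NFKB2 (log2FC 0.48, SE 0.15, FDR 0.0263), whose log2FC within the pairs was 1.19, 0.19 and 0.06. With the 3 pair differences as the replicates NFKB2 was not called (FDR 0.975), and no member was at an unadjusted p under 0.05.

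Other genes of the pathway were followed through 9 lists by role, with 120 genes of which 71 were in the table. In the A2780 pair 31 were higher and 8 lower in CP70, in sum 54.9% of the 71 against 39.9% of all genes, with a median log2FC of 0.32. Some markers of other cell types were also higher in CP70. The summed fibroblast markers were at 855 to 993 CPM against 509 to 719 CPM in A2780. Most of this sum was COL3A1 (3228 to 5810 reads against 1495 to 2527). DCN was at 80 to 150 reads against 4 to 12 and LUM at 41 to 72 reads against at most 6. COL1A1 went the other way (mean log2 CPM 2.22 in CP70 and 2.71 in A2780). The summed epithelial markers were at 90.3 to 96.0 CPM in CP70 and 1.68 to 2.84 CPM in A2780, and the mesothelial markers at 6.72 to 7.11 CPM and at most 1.40 CPM. Of the mesothelial markers only CALB2 was higher in CP70 (26 to 39 reads against 0 in A2780). MSLN and UPK3B had at most 2 reads in CP70, and UPK3B up to 5 in A2780. PTPRC had at most 2 reads and CDH5 had 0 in both lines. The part of these in the A2780 pair, for the members as for the lists, was not tested. Of the 39 changed genes, ACKR2 and MYD88 had at most 3 reads in every library of the pair. Of 10 receptors 7 were higher (22.2% of all genes) and none lower (17.7% of all genes). The other 3 had at most 3 reads in every library of the pair, so no fall could be seen in them. The rise was led by TLR6, a Toll-like receptor for bacterial lipopeptides (log2FC 2.83, SE 0.30, FDR 1.71e-07). BCL3, an atypical IkB protein that joins p50 and p52 on DNA, rose by 2.65 on the log2 scale (SE 0.23, FDR 9.41e-09). IKBKE, a kinase related to the IKK complex, rose by 1.50 (FDR 1.80e-05). The ubiquitin ligases BIRC3 and BIRC2 moved apart, BIRC3 being at least 3.75-fold higher in CP70 (13 to 20 reads, against at most 3 in A2780) and BIRC2 lower (log2FC -1.08, FDR 2.22e-06).

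Target genes went both ways in the A2780 pair, with 7 of 14 higher and 2 lower, against 22.2% and 17.7% of all genes. Of the 14, 3 had at most 3 reads in every library of the pair. VCAM1, an adhesion molecule for leukocytes, was at least 5.66-fold higher in CP70 (20 to 29 reads, against 0 in A2780). SAA1, an acute phase protein, was at least 35.4-fold lower in CP70 (at most 3 reads, against 60 to 96). The RNase ZC3H12A, which degrades cytokine mRNA, was higher (log2FC 1.31, FDR 0.000808), the kinase adaptor TAB3 was lower (log2FC -0.75, FDR 0.000440) and CCR1, a receptor of CCL5, was lower (log2FC -2.43, FDR 4.13e-05). The ligands TNF, LTB and IL1A had at most 2 reads in every library of A2780 and CP70, and IL1B at most 6.

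**Figure D3:**
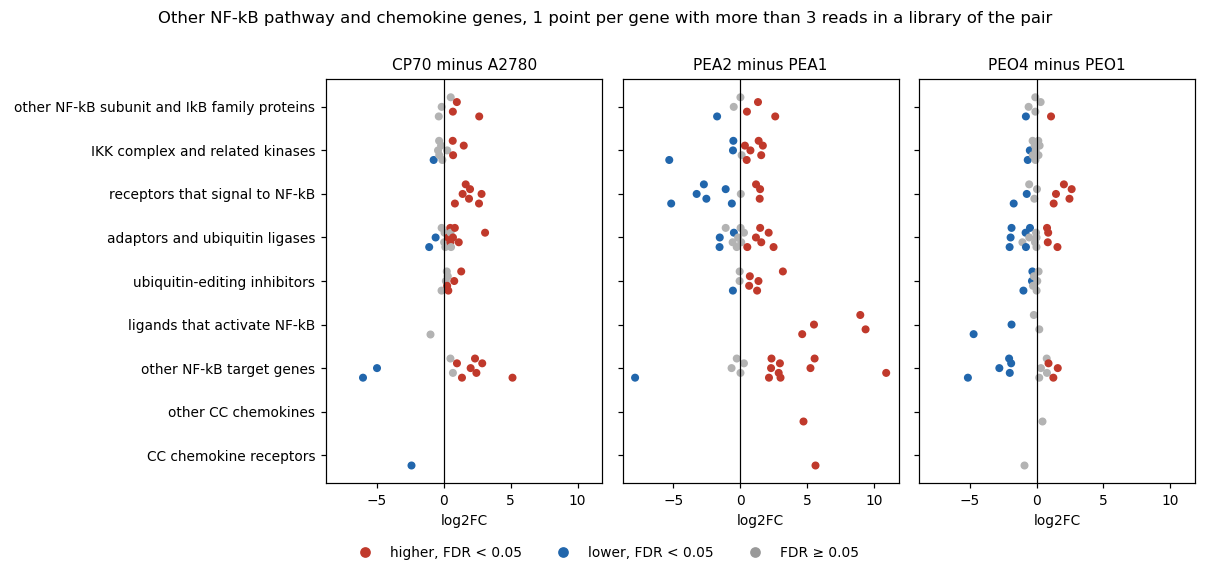
Estimated log2FC of the resistant against the sensitive line (x axis, log2 scale) for the other pathway genes by role (y axis), with 1 point per gene in each pair, coloured by direction and FDR, and without genes at 3 reads or fewer in all libraries of the pair. All 4 ligands lie right of 0 in the PEA pair (32.5% of all genes were called higher). Receptors in the same pair lie on both sides with 6 of 10 lower (29.4% of all genes).

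In the PEA pair 38 of the 71 genes were higher in PEA2 and 15 lower, in sum 74.6% against 61.9% of all genes, with a median log2FC of 0.51. All 4 ligands with values were higher, against 32.5% of all genes. IL1B rose at least 111-fold (379 to 948 reads against 0), IL1A at least 250.4-fold (970 to 1866 reads against 1 in each PEA1 library), LTB at least 14.8-fold (59 to 87 reads against at most 2), and TNF from 0 to 5 reads to 118 to 180 reads (log2FC 5.52, SE 0.63, FDR 2.46e-07). Of 14 target genes 9 were higher and 1 lower, against 32.5% and 29.4% of all genes. CXCL8, a chemokine for neutrophils, was at least 322-fold higher (1246 to 2040 reads against 0), and VCAM1 was at least 36.8-fold lower (0 reads, against 59 to 88 in PEA1).

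The proteins that act downstream of receptors moved unequally in the PEA pair. NFKBIZ, a nuclear IkB protein needed for a subset of target genes, rose (log2FC 2.62, SE 0.26, FDR 3.63e-08), while NFKBIE, a cytoplasmic IkB, fell (-1.72, SE 0.25, FDR 5.72e-06). MAP3K14, the kinase of the non-canonical route, was at 309 to 345 reads in PEA1 and 8 to 22 reads in PEA2 (log2FC -5.29, SE 0.23, FDR 2.13e-13), and in the same pair RELB was lower and NFKB2 was not called. IRAK2, a kinase of interleukin 1 signalling, was higher (log2FC 2.50, FDR 0.00124), as were IKBKE (1.70, FDR 2.02e-06), LTBR, the lymphotoxin receptor (1.49, FDR 0.00107), and ZC3H12A (3.19, FDR 6.68e-09). TLR3, a sensor of double-stranded RNA, was at least 16.9-fold lower (1 read in each PEA2 library, against 27 to 39), and lower values were also seen for BIRC2 (log2FC -1.53, FDR 9.71e-09) and OTUD7B, a deubiquitinase (-0.54, FDR 0.000235). The scavenging chemokine receptor ACKR2 was at least 11.3-fold higher.

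In the PEO pair 13 of the 71 genes were higher in PEO4 and 21 lower, in sum 47.9% against 41.5% of all genes, with a median log2FC of -0.09. TNF was at least 9.02-fold lower in PEO4 (at most 1 read, against 23 to 62 in PEO1) and CXCL8 fell from 61 to 194 reads in PEO1 to 0 to 6 (log2FC -5.12, SE 0.63, FDR 1.70e-06). Of 14 target genes 5 were lower and 3 higher, against 21.9% and 19.6% of all genes, and 2 had at most 3 reads in every library of the pair. The higher ones were led by TAP1, which carries peptides to HLA class I (log2FC 1.59, FDR 0.000172). Of 8 ubiquitin-editing inhibitors 3 were lower (21.9% of all genes), among them ZC3H12A (-0.98, FDR 0.00826). BIRC3 (log2FC -2.01, FDR 0.00181), BCL3 (-0.79, FDR 0.00888), IL1R1, the interleukin 1 receptor (-1.70, FDR 5.54e-06), and IKBKG, the regulatory subunit of the IKK complex (-0.65, FDR 0.00880), were lower too. NFKBIE (1.08, FDR 0.00145), SHARPIN, a subunit of the linear ubiquitin ligase (1.56, FDR 5.78e-07), and TLR3 (2.62, FDR 1.40e-05) were higher.

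The PEA and PEO pairs were then set side by side, since they share no library. Of the 53 listed genes changed between PEA1 and PEA2 and the 34 changed between PEO1 and PEO4, 24 were shared. Of these 24, 19 (79.2%) moved in opposite directions, whereas 54.2% of the 3464 genes of the whole table that were changed in both pairs did. The 14 that were higher in PEA2 and lower in PEO4 were TNF, IL1B, IL6, CXCL8, SOD2, IER3, PTX3, IRAK2, TICAM1, RBCK1, CHUK, TNIP1, ITCH and ZC3H12A, and the 5 that were lower in PEA2 and higher in PEO4 were TLR1, TLR2, TLR3, TLR6 and NFKBIE. CD40, PTGS2 and TRADD were higher and IL1R1 and TNFRSF12A lower in both. Among the members, TNFAIP3 and NFKBIA were changed in both pairs, both in opposite directions. Opposite directions were seen for 14 of the 28 listed genes changed in both the A2780 and PEA pairs (46.7% over all genes) and for 10 of the 19 changed in both the A2780 and PEO pairs (56.7%). These shares describe lists of few genes, chosen with earlier results of these data known, and were not tested.

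**Figure D4:**
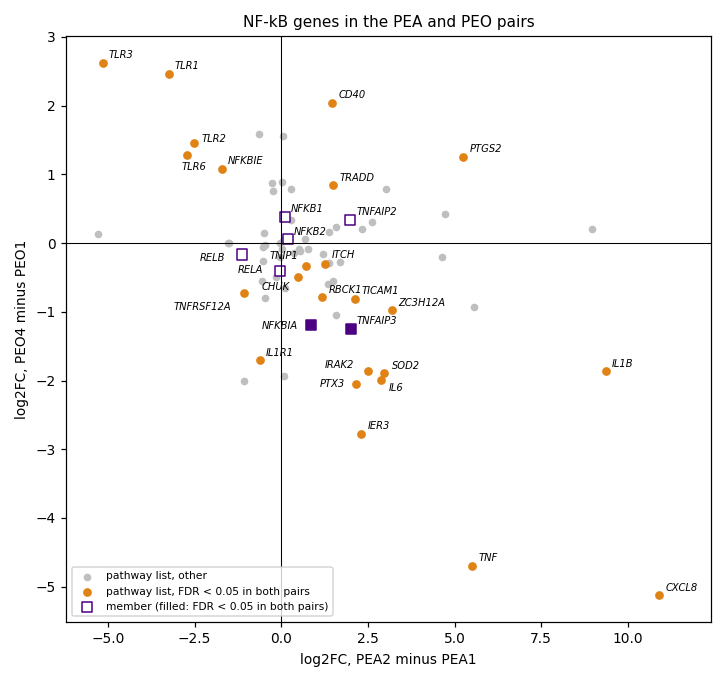
Estimated log2FC in the PEA pair (x axis) against that in the PEO pair (y axis), both on a log2 scale, for 75 of the 80 genes (members and listed genes, without those at 3 reads or fewer in all libraries of either pair). The 26 genes changed in both pairs are filled or orange and 16 of them, TNFAIP3 and NFKBIA included, lie at the lower right.

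Some genes followed the members closely over the 18 libraries, given here as a description, since the libraries of a line are not independent points. TNFAIP3 was most like NCEH1 and WWC1 (Pearson r 0.985 for both), NFKBIA like ATP8A2 (0.964) and CYTH3 (0.961), and TNFAIP2 like C1orf116 and TMEM139 (0.991 for both). NFKB2 was most like FZD1 (0.987) and OGFRL1 (0.984), RELA like GPSM2 (0.962), RELB like ZNF438 (0.933) and RFTN1 (0.923), and NFKB1 like YAE1D1 and HSPA9 (0.902 for both). For CCL20 the closest were KYNU (0.994) and CCDC129 (0.992), and for CCL5 C2orf91 (0.961) and OBP2A (0.949), where r rests on 1 line that holds reads. Among the members themselves, r over the 6 line means was 0.929 for TNFAIP3 with TNFAIP2, 0.910 with NFKB2 and 0.845 with NFKBIA. It was 0.876 for RELB with NFKB2 and -0.759 for RELA with NFKB1. Spearman's rho over the same means was 0.771, 0.829, 0.943, 0.6 and -0.829, in that order. Mean log2 CPM of TNFAIP3 and TNFAIP2 was at most 2.29 in A2780 and CP70 and at least 4.57 in the HGSOC lines. Their r includes this gap. Their log2FC, TNFAIP3 first, were 1.16 and -0.46 for CP70, 2.00 and 1.99 for PEA2, and -1.25 and 0.34 for PEO4. The signs agreed only for PEA2, where alone TNFAIP2 was called.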

How the data were processed

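RNA-seq of 18 libraries was analysed, 3 from each of 6 cell lines. Per the labels and the methods of the study, ribosomal RNA was depleted, strand-specific libraries were made, and reads were aligned to hg19 with Bowtie2, assigned to genes with featureCounts and normalized with limma (versions are not given in the sources used here). The authors deposited log2 CPM values for 12853 genes, which hold 0.5 added reads and a scaled library size. Whole reads were recovered from 100% of them, within 0.01 reads, and floors in reads cover counting error only.

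Tests on the log2 values used limma 3.58.1 under R 4.3.3 (moderated linear models with a variance trend) in 1 fit with a mean per line, and FDR is Benjamini-Hochberg over all 12853 genes. Nothing in the labels says that the replicates were separate cultures, so p-values measure only the spread between these libraries, which may be technical. A fold against a line with at most 3 reads in every library uses the mean CPM over that of 3 reads per library and is a lower bound. The members and gene lists were chosen with earlier results of these data known. The text names the members, in each pair and role list the highest and lowest log2FC among changed genes with over 3 reads, and for each member the 2 genes with the highest r, of which 1 is not reported here. The genes named in the comparison of the PEA and PEO pairs, the ligands TNF, LTB and IL1A, and ACKR2 and MYD88 in the A2780 pair were added after their values were seen. Gene positions come from GENCODE on GRCh37. Alternatives were each pair alone, a replicate block, a filter on a mean log2 value above 0 (removing 355 genes, and leaving 7 members), quantile normalization, no trend, voom weights, 2 reads added, and each library left out. The scripts were tested on simulated data.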

Additional observations from a re-analysis of the deposited data

Results flagged for a closer look

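For 8 of the 9 members the difference between the resistant and the sensitive line was not the same in the 3 pairs, by the F test of that difference (limma, FDR below 0.05), as it was for 75.3% of all genes. NFKB2 (FDR 2.02e-05), RELA (8.76e-05) and TNFAIP2 (6.60e-06) differed in this way, with NFKB2 called higher in CP70, RELA higher in CP70 and lower in PEO4, and TNFAIP2 higher in PEA2. RELB (FDR 0.000273) was higher in CP70 and lower in PEA2. NFKBIA (FDR 1.29e-08) and TNFAIP3 (FDR 1.12e-07) were higher in PEA2 and lower in PEO4, without overlap of the libraries in either pair. CCL20 (FDR 7.95e-12) and CCL5 (FDR 6.06e-09) were each detected in 1 line, PEA2 and PEO4, and had at most 2 reads in any library of the other lines, so that their test rests on that line and on the 0.5 reads added to each value.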

How the results depend on the processing

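Of the values for single members, 285 kept their direction and their side of the threshold under the alternatives, 5 gained a call and 1 lost it. Those that changed sign were all small and not called, namely NFKB1 in the A2780 pair (0.026 after quantile normalization, and -0.045 to 0.026 when a replicate was left out) and in the PEA pair (-0.020 after quantile normalization), and, when a replicate was left out, RELA in the PEA pair (-0.051 to 0.0068), NFKB2 in the PEO pair (-0.0016 to 0.12) and RELB in the PEO pair (-0.34 to 0.10). The sign turned without A2780 replicate 1 for NFKB1, PEA2 replicate 2 for RELA, PEO1 replicate 1 for NFKB2 and PEO4 replicate 2 for RELB. NFKB1 in the PEA pair was called without PEA2 replicate 3 (log2FC 0.24, FDR 0.0478). Quantile normalization moved the median log2FC of all genes in the PEA pair by -0.11. Differentially expressed members in the PEA pair numbered 1 in place of 2 after the filter on the mean log2 value, quantile normalization, voom weights or 2 added reads, and 1 to 2 when a replicate was left out, with TNFAIP2 past the bound of 2 in place of TNFAIP3 in 3 of those fits. In the PEO pair the filter left 0 in place of 1, since it removed CCL5 and CCL20 by construction.

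The same-numbered libraries of a pair did not deviate together throughout (correlations of deviations 0.22, 0.14 and -0.08 in the A2780 pair, -0.18, 0.01 and 0.08 in the PEA pair, and -0.01, -0.07 and 0.13 in the PEO pair). These few values cannot show whether libraries of the same number were handled together, and the labels do not say. With the replicate block the changed members remained 4, 5 and 5 in number in the A2780, PEA and PEO pairs, the differentially expressed ones 0, 2 and 1, and the changed pathway genes were 38, 54 and 34. In the model over all pairs the block left 0 members changed (limma, 1 at an unadjusted p under 0.05), and 999 genes were called in place of 3092. That model also gave 0 with the 3 pair differences as replicates (0 genes called in the whole table), and 1 to 2 members when a replicate was left out, with 2 without A2780 replicate 1. Depth limits TNFAIP3 in A2780, where 4 to 8 reads were counted, and both chemokines in the lines with 0 reads. The cause of these changes was not tested.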
